A study of Homo sapiens with 10 samples.

Results

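The sites described here are the TTF-1 peaks that were called in H441 cells at 1.5 h and had no counterpart at 0 h. They were chosen by the 2 TTF-1 peak lists alone: a member is a peak of the 1.5 h list that shares no base with any peak of the 0 h list. The rule leaves out 7 peaks in an interval on chromosome 15 (41264951 to 41274549). It gave 885 members among the 21291 TTF-1 peaks at 1.5 h, and the 20399 peaks with a 0 h counterpart are called shared below. H441 and A549 are human lung adenocarcinoma cell lines, in which binding sites were mapped by ChIP-seq, the sequencing of DNA recovered with an antibody against a transcription factor. The TTF-1 libraries came from TTF-1-positive H441 cells with no siRNA named in their titles. Smad3 and Smad4 were mapped in H441 cells with a control siRNA (siControl) or after knockdown of TTF-1 by siRNA (siTTF-1), and Smad3 was also mapped in A549 cells, which are TTF-1-negative. The labels describe 1 ng/ml TGF-β3 for 1.5 h for every sample, so that the 0 h library is untreated follows only from its title. Each condition had 1 library, and the lists give no read counts, so the depth is unknown. No difference could therefore be set against replicate spread, and the 95% intervals below cover counting error over peaks only. Positions are on hg18 and count from 1.

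TTF-1 (NKX2-1) is a homeodomain transcription factor that specifies lung epithelium and drives its surfactant and secretory genes, and it is retained as a lineage factor in many lung adenocarcinomas. TGF-β binds receptor kinases that phosphorylate Smad3, which joins Smad4 and enters the nucleus. Smad proteins bind DNA weakly on their own and are usually found at sites held by other transcription factors of the cell type. Smad peaks were not used to choose the members and are the independent readout here, although the labels name the same input DNA for the H441 Smad3 and TTF-1 libraries.

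Sites called only at 1.5 h were few and stood late in the list. They made up 4.16% (exact Clopper-Pearson 95% interval 3.89 to 4.43) of the 1.5 h peaks, or 4.19% with the 7 peaks on chromosome 15. In the opposite direction, 10780 of the 31083 peaks at 0 h (34.7%, 34.2 to 35.2) had no 1.5 h counterpart. The lists differ in length. When the 0 h list was shortened by peak number to 21291 peaks, 3022 peaks (14.2%, 13.7 to 14.7) fell only at 1.5 h and 3183 (14.95%, 14.5 to 15.4) only at 0 h. The 2 sides are unlike. The 3022 hold the 885 members, and the rest are shared peaks whose 0 h counterparts were cut by the shortening. The 3183 have no 1.5 h counterpart in the full list. Near-equal counts follow from equal list lengths, so these values only show how many sites fall on each side at that length.

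The peak number is the only value in the list that varies between peaks besides position and width, and the sources used here do not say what it orders. No member stood among the first 4259 peaks. Of the 885 members, 23 (2.60%) lay in the first 50% of the list and 600 (67.8%) in its last 20%. The share of members rose from 1.46% (0.99 to 2.06) of peaks 10647 to 12775 to 17.4% (15.8 to 19.1) of peaks 19163 to 21291. Members were also narrow, with a median width of 349 bp (quartiles 299 and 449) against 599 bp (449 and 849) for shared peaks. The difference was present among peaks of like number: in the last 20% of the list the median was 349 bp for members and 449 bp for shared peaks. These values come from the list that defined the members and are given as a description.

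**Figure D1:**
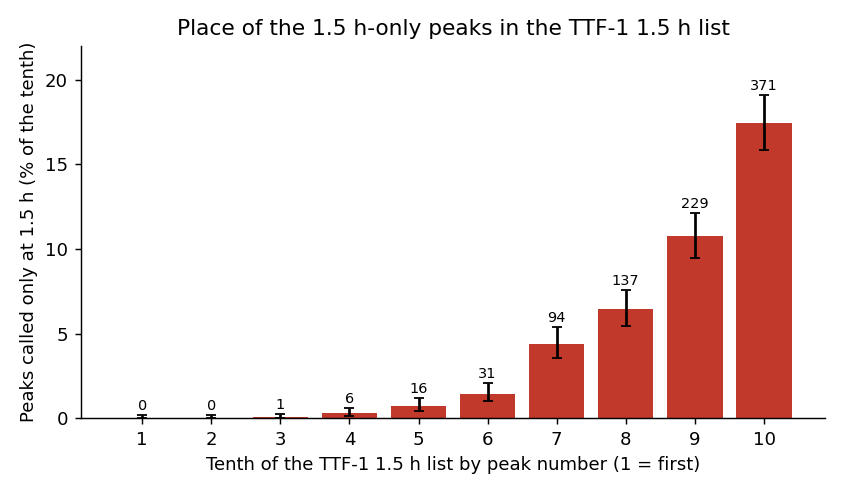
Percent of peaks called only at 1.5 h (y axis) in each 10% of the TTF-1 1.5 h list by peak number (x axis), with exact 95% intervals and the number of members above each bar. The bars rise from 0 members in the first 2 groups to 371 members, 17.4%, in the last.

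The 8 members with the lowest peak numbers were divided between sites with and without Smad3. The first, number 4947 on chromosome 8 (55413751 to 55414199), had no Smad peak and lay 8501 bp from the nearest 0 h peak. Number 7065 on chromosome 1 (23300701 to 23300949) and number 7094 on chromosome 8 (134874651 to 134875149) both held Smad3 in siControl and siTTF-1 cells. The Smad3 peak on chromosome 1 was number 2668 in the siControl list and number 625 in the longer siTTF-1 list, and that on chromosome 8 was 1624 and 869. Smad3 was thus present at these 2 sites with and without TTF-1 depletion. Number 7155 on chromosome 6 (4297901 to 4298349), number 8108 on chromosome 4 (47826001 to 47826549) and number 8880 on chromosome 14 (74046801 to 74047499) had no Smad peak. Number 8248 on chromosome 4 (10201701 to 10202099) held early Smad3 peaks, number 524 in siControl and 291 in siTTF-1 cells. Number 8313 on chromosome 19 (51150951 to 51151499) held Smad3 in both conditions (numbers 1051 and 547) and Smad4 in siTTF-1 cells (number 911), with the nearest 0 h peak 254951 bp away. Of these 8 sites, 4 therefore carried Smad3 in both siRNA conditions and 4 carried none of the Smad peaks. All but number 8880 stood among peaks 4260 to 8517, where 4 of 7 members (57.1%, 18.4 to 90.1) held Smad3 in each condition. Shared peaks of those numbers held Smad3 siControl at 41.9% (40.4 to 43.4) and Smad3 siTTF-1 at 40.0% (38.5 to 41.5). Both shares lie within the interval of the members, so no excess over shared peaks is read from these sites.

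The distance from members to TTF-1 sites called at 0 h varied widely. The median gap to the nearest 0 h peak was 9601 bp (quartiles 1851 and 35251), and 447 members (50.5%, 47.2 to 53.9) had a 0 h peak within 10 kb. A gap of at most 500 bp was found for 119 members (13.4%, 11.3 to 15.9), and for 96 of these (80.7%, 72.4 to 87.3) the nearest 0 h peak was itself called again at 1.5 h. The same held for 609 of all 885 members (68.8%, 65.6 to 71.9), and 65.3% (64.8 to 65.8) of all 0 h peaks were called again. At the other end, 78 members (8.81%) had no 0 h peak within 100 kb. The median gap from a member to the nearest other member was 828951 bp, and 28 members had another within 10 kb. Whether members lie closer together than an equal number of other 1.5 h peaks was not tested. The median distance from members to the nearest shared peak was 15251 bp, and that of shared peaks to the nearest other shared peak was 13601 bp. By the median, members thus lay no nearer to shared sites than those did to each other.

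**Figure D2:**
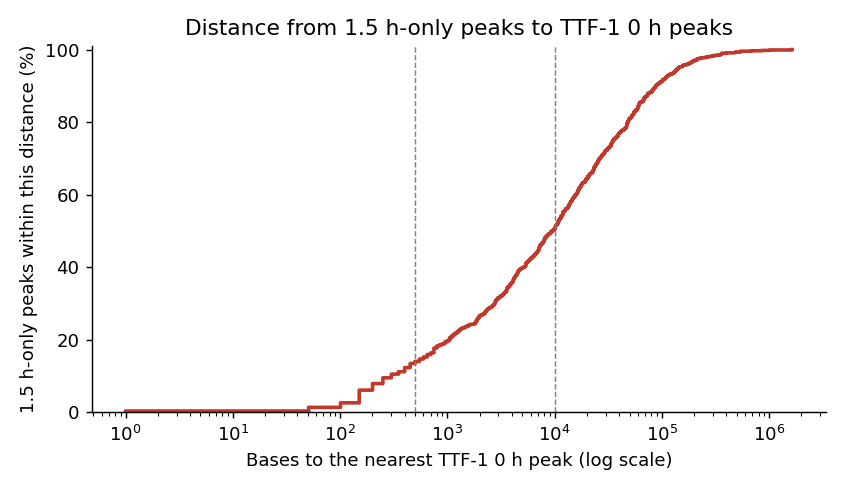
Cumulative percent of the 885 members (y axis) against the gap in bases to the nearest TTF-1 0 h peak (x axis, log scale). Dashed lines mark 500 bp, reached by 13.4% of members, and 10 kb, reached by 50.5%.

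The rule has a sharp edge, which few peaks approached. Separated from a 0 h peak by 1 base were 3 members, number 15885 on chromosome 9 (78177451 to 78177849), number 20779 on chromosome 12 (15746051 to 15746449) and number 21189 on chromosome 12 (105051651 to 105051899). None of these held a Smad peak. Positions stand in steps of 50 bp, and 1 was added to each deposited start. Without that addition these 3 members would abut the 0 h peak, so gaps and overlaps are not exact to the base. Just on the shared side lay number 20871 on chromosome 6 (125430401 to 125430749) with 49 bp in common, number 18648 on chromosome 5 (149996801 to 149997299) with 99 bp and number 10553 on chromosome 3 (64304951 to 64305249) with 149 bp. The shared peaks as a whole overlapped widely, and 20279 of them (99.4%) were covered by 0 h peaks over at least 50% of their width. The 3 members farthest from any 0 h peak were number 17506 on chromosome 4 (135006451 to 135006699), at 1642251 bp, number 14273 on chromosome 10 (83349801 to 83350349), at 1018501 bp, and number 17968 on chromosome 18 (21484601 to 21484949), at 851601 bp. Only the site on chromosome 10 held Smad3, late in both H441 lists (numbers 8528 and 11909).

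Smad3 from siControl cells was less frequent at members than at TTF-1 sites in general. It was present at 176 of the 885 members (19.9%, 17.3 to 22.7), against a background of 34.3% over all 1.5 h peaks and 34.9% (34.2 to 35.6) of shared peaks. Smad3 from siTTF-1 cells was present at 306 members (34.6%, 31.4 to 37.8), near the background of 35.9%. Smad4 from siTTF-1 cells, the partner that completes the Smad complex, was present at 48 members (5.42%, 4.03 to 7.13), above the background of 3.54%. Smad3 of A549 cells was present at 41 members (4.63%, 3.34 to 6.23), near the background of 5.03%. The only Smad4 siControl peak was not at a member. The Smad4 lists allow false discoveries up to 10% and the A549 list up to 5%, against 1% for the others, so levels are compared within a Smad list and not between them. Sites called only at 0 h had fewer Smad peaks of each kind: 6.41% (5.95 to 6.89) held Smad3 siControl, 14.2% (13.5 to 14.9) Smad3 siTTF-1, 0.90% (0.73 to 1.10) Smad4 siTTF-1 and 1.77% (1.53 to 2.04) A549 Smad3. With both TTF-1 lists at 21291 peaks, Smad3 siControl was at 20.5% (19.1 to 22) of the 3022 peaks only at 1.5 h and at 7.48% (6.59 to 8.45) of the 3183 peaks only at 0 h. Most of the 3022 are shared peaks under the full lists, so this contrast is not one of members alone. Smad4 siTTF-1 was at 4.07% (3.39 to 4.84) and 0.66% (0.41 to 1.01) of the same peaks. No Smad library is titled 0 h, so sites called only at 0 h have no Smad map of that time.

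**Figure D3:**
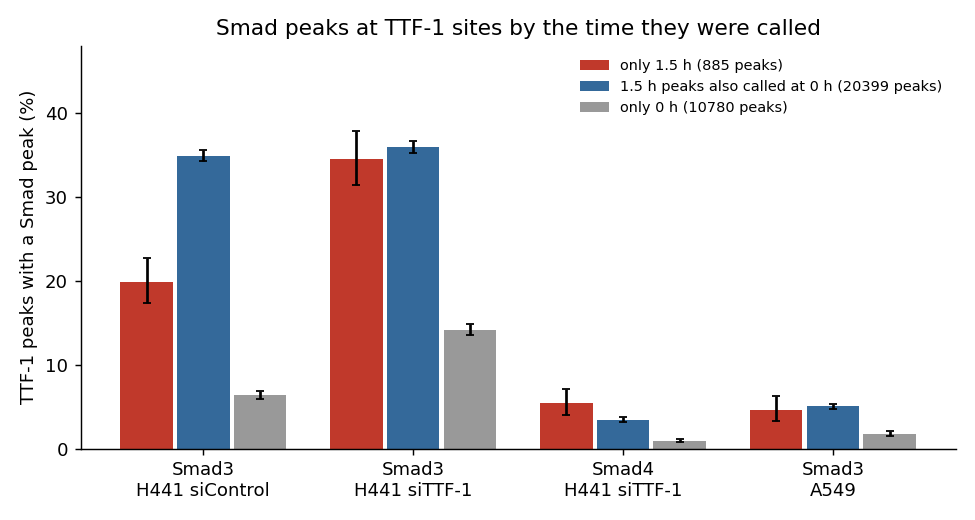
Percent of TTF-1 peaks that overlap a Smad peak (y axis) in 4 Smad lists (x axis), for peaks called only at 1.5 h, at both times and only at 0 h, with exact 95% intervals. Peaks called only at 1.5 h stand below the shared peaks for Smad3 siControl (19.9% against 34.9%) and above those called only at 0 h in all 4 lists.

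Smad3 siControl was present at 65.9% of shared peaks in the first 20% of the TTF-1 list and at 13.7% in the last. Since members stood late in the list, they were next compared with shared peaks of like number. The list was divided into 5 equal groups by peak number, 4 of which hold members. In the third of these groups, Smad3 siControl was present at 21 of 47 members (44.7%, 30.2 to 59.9) and at 29.8% (28.4 to 31.2) of shared peaks. In the fourth the shares were 25.5% (20.05 to 31.7) of 231 members and 19.4% (18.2 to 20.6) of shared peaks, and in the fifth 15.3% (12.5 to 18.5) of 600 members and 13.7% (12.6 to 14.8). Members were thus the higher of the pair in each of these groups, with intervals that overlapped in all 3. For Smad3 siTTF-1 the shares in the fourth and the fifth group were 35.5% (29.3 to 42.0) and 32.7% (28.9 to 36.6) of members and 28.6% (27.2 to 30.0) and 22.9% (21.5 to 24.2) of shared peaks. Smad4 siTTF-1 differed most in relative terms, with 9.52% (6.07 to 14.1) and 3.33% (2.05 to 5.10) of members against 2.14% (1.71 to 2.63) and 1.28% (0.95 to 1.70) of shared peaks. A549 Smad3 was at 4.76% (2.40 to 8.36) and 3.83% (2.45 to 5.70) of members and at 4.35% (3.74 to 5.02) and 2.90% (2.38 to 3.49) of shared peaks, with overlapping intervals. In the third group A549 Smad3 was at 7 of 47 members (14.9%, 6.2 to 28.3) and at 5.39% (4.73 to 6.12) of shared peaks.

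**Figure D4:**
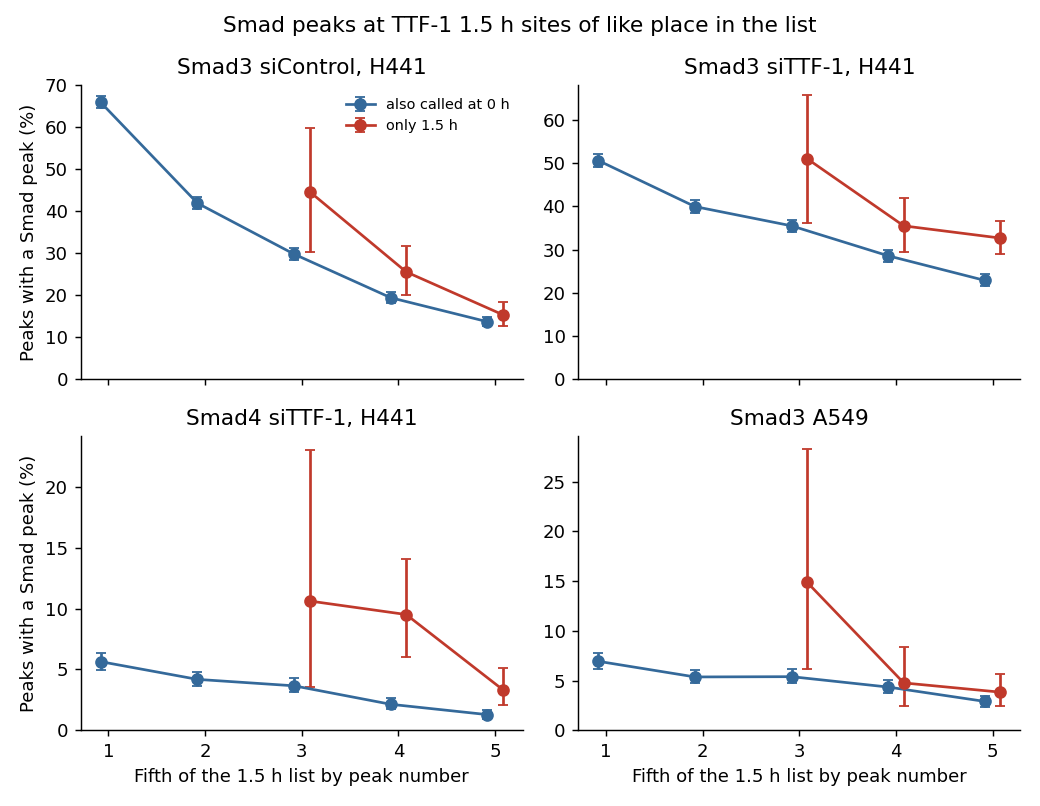
Percent of TTF-1 1.5 h peaks with a Smad peak (y axis) in 5 equal groups of the list by peak number (x axis), for members and shared peaks, with exact 95% intervals and 1 panel per Smad list. Groups with under 20 members are not drawn, and members stand above shared peaks at each drawn point, for Smad4 siTTF-1 at 9.52% against 2.14% in the fourth group.

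The stratified odds ratio summarises these groups. In the main comparisons it was computed 12 times within the 5 groups of peak number, 8 times here (4 Smad lists at each time) and 4 times among sites with Smad3 below. Further ratios were computed under the alternative settings given in the closing section. No p-value was computed, since peaks are not replicates. For members against shared peaks within the 5 groups, the Mantel-Haenszel odds ratio was 1.30 (1.09 to 1.55) for Smad3 siControl, 1.58 (1.36 to 1.83) for Smad3 siTTF-1, 3.47 (2.49 to 4.85) for Smad4 siTTF-1 and 1.38 (0.98 to 1.93) for A549 Smad3. The first 3 intervals lie above 1 and that for A549 includes 1. Without groups, the ratios were 0.46 (0.39 to 0.55), 0.94 (0.82 to 1.08), 1.60 (1.19 to 2.16) and 0.91 (0.66 to 1.26) in the same order, so the ratio for the 3 Smad3 lists turned to below 1 without grouping, with intervals that include 1 for siTTF-1 and A549. For Smad3 siControl it also turned when the groups were made by peak width, to 0.84 (0.70 to 0.996). Smad4 siTTF-1 was above 1 both ways. Sites called only at 0 h gave ratios below 1 against shared peaks within 5 groups of the 0 h list: 0.27 (0.24 to 0.30) for Smad3 siControl, 0.37 (0.34 to 0.40) for Smad3 siTTF-1, 0.25 (0.19 to 0.33) for Smad4 siTTF-1 and 0.32 (0.26 to 0.40) for A549 Smad3. None of these intervals meets that of the members for the same Smad list. The Smad libraries are all labelled with 1.5 h of TGF-β3 and none is titled 0 h. Sites called only at 0 h are therefore not compared with Smad maps of their own time. The number orders each list by itself, and whether equal places in both lists mean equal TTF-1 enrichment was not tested.

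**Figure D5:**
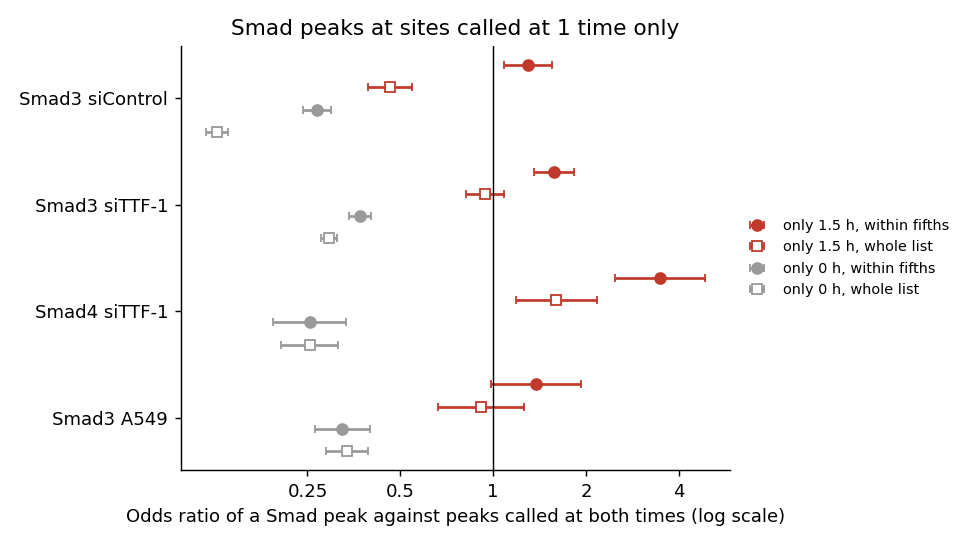
Odds ratio of a Smad peak (x axis, log scale) against peaks called at both times, for 4 Smad lists (y axis), with 95% intervals. Filled circles are taken within 5 groups of peak number and open squares over the whole list; within groups, peaks only at 1.5 h lie at 1.30 to 3.47 and peaks only at 0 h at 0.25 to 0.37.

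Smad3 at the members was divided between sites with Smad3 in both siRNA conditions and sites where it was called only after TTF-1 depletion. Smad3 was called in both conditions at 160 members (18.1%, 15.6 to 20.8), only in siTTF-1 cells at 146 (16.5%, 14.1 to 19.1), only in siControl cells at 16 (1.81%, 1.04 to 2.92) and in neither at 563 (63.6%, 60.3 to 66.8). The corresponding shares of shared peaks were 27.7%, 8.21%, 7.16% and 56.9%. Of the 176 members with Smad3 in siControl cells, 160 (90.9%, 85.7 to 94.7) still had it after TTF-1 depletion, against 79.5% (78.5 to 80.4) of the 7120 shared peaks. Of the 306 members with Smad3 in siTTF-1 cells, 146 (47.7%, 42.0 to 53.5) lacked it in siControl cells, against 22.8% (21.9 to 23.8) of the 7333 shared peaks. Both differences were smaller at like peak number, with intervals that include 1. For Smad3 kept after depletion the odds ratio was 2.58 (1.54 to 4.33) over the whole list and 1.49 (0.87 to 2.54) within the 5 groups, a comparison added after seeing the data. In the third group Smad3 was kept at 21 of 21 members (83.9 to 100) and at 84.2% (82.1 to 86.2) of shared peaks. The shares were 86.4% (75.02 to 93.96) of members and 88.2% (85.7 to 90.4) of shared peaks in the fourth group, and 91.3% (83.6 to 96.2) and 87.4% (84.2 to 90.2) in the fifth. For Smad3 only in siTTF-1 cells the odds ratio was 3.08 (2.45 to 3.89) over the whole list and 1.15 (0.90 to 1.47) within the groups. Its shares in the third group were 3 of 24 members (12.5%, 2.66 to 32.4) and 29.4% (27.1 to 31.7) of shared peaks. They were 37.8% (27.3 to 49.2) and 40.1% (37.2 to 43.0) in the fourth, and 57.1% (49.9 to 64.2) and 47.7% (44.3 to 51.2) in the fifth. The intervals of members and shared peaks overlapped in each of these groups, so no order between them is read from these shares. The siTTF-1 Smad3 list is also the longer, with 14145 peaks against 8941.

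The earliest members of each Smad3 class were as follows. The 3 with Smad3 in both conditions, on chromosomes 1, 8 and 4, are given above. Only in siTTF-1 cells, Smad3 was called at number 9010 on chromosome X (71758201 to 71758749), as Smad3 peak 3619. The others of this class were number 12241 on chromosome 2 (179841501 to 179841949), as Smad3 peak 5249, and number 12424 on chromosome 11 (17234701 to 17234999), as Smad3 peak 11521. Of these 3 sites the one on chromosome X also had an A549 Smad3 peak (number 1482), so Smad3 was called there in both settings of low TTF-1 and not in siControl H441 cells. Only in siControl cells, Smad3 was called at number 13051 on chromosome 3 (160438351 to 160438649), as Smad3 peak 3173. The others of that class were number 13416 on chromosome 17 (71537051 to 71537749), as Smad3 peak 7375, and number 13816 on chromosome 14 (77022501 to 77022899), as Smad3 peak 4416. The first and second of these lay 51 bp and 151 bp from a 0 h peak.

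Nearly all members with Smad4 also held Smad3, as did shared peaks with Smad4: 47 of 48 members (97.9%) and 691 of 705 shared peaks (98.0%). Of the 48 members with a Smad4 siTTF-1 peak, 39 had Smad3 in both conditions, 8 only in siTTF-1 cells and 1 in neither. Among members with Smad3 in both conditions the Smad4 share was 24.4% (17.9 to 31.8), against 11.2% (10.4 to 12.1) of shared peaks of that class. Over all peaks with a Smad3 siTTF-1 peak, Smad4 was present at 47 of 306 members (15.4%, 11.5 to 19.9) and at 686 of 7333 shared peaks (9.35%, 8.70 to 10.04). The odds ratio within the 5 groups was 2.77 (1.94 to 3.96), a comparison chosen after seeing the data. For A549 Smad3 the same comparison gave 11.8% and 12.6%, with an odds ratio of 1.10 (0.75 to 1.59). All 4 Smad lists met at 14 members (1.58%, 0.87 to 2.64) and at 1.24% (1.09 to 1.40) of shared peaks, and 557 members (62.9%, 59.7 to 66.1) met none of them.

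The earliest members with Smad4 were the site on chromosome 19 at 51150951, described above, and 2 sites present in all 4 Smad lists. At number 8978 on chromosome 19 (18631801 to 18632749), a 949 bp peak, the Smad peaks had the numbers 363 (Smad3 siControl), 373 (Smad3 siTTF-1), 307 (Smad4) and 1105 (A549). Number 9422 on chromosome 20 (42432551 to 42433099) had Smad4 peak number 48, near the head of that list. Its Smad3 peak was number 4530 in siControl cells and number 651 in siTTF-1 cells, and its A549 peak was number 855. Both sites lay well away from 0 h TTF-1 peaks, at 36801 and 67501 bp. Together with the site on chromosome X they are also the 3 earliest members with an A549 peak.

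Width singled out other members than peak number did. The widest was a 1349 bp peak, number 19461 on chromosome 7 (92233501 to 92234849), with a late Smad3 siTTF-1 peak (number 11311). A 1199 bp peak on chromosome 1 (184998301 to 184999499), number 14972, had Smad3 in siTTF-1 cells (number 3501) and in A549 cells (number 1503). A 1149 bp peak on chromosome 16 (65104551 to 65105699), number 16224, had all 4 Smad peaks, with Smad4 at number 309. All 3 of the widest members had Smad3 after TTF-1 depletion, and 1 of them had it in siControl cells. Among the 120 members in the wider 50% of the 1.5 h list, these shares were 50% (40.7 to 59.3) and 32.5% (24.2 to 41.7). The shares of shared peaks in that 50% are not given, so no excess at wide members is read from them. Within 5 groups of peak width, the odds ratio of members against shared peaks was 1.35 (1.17 to 1.57) for Smad3 siTTF-1. For Smad3 siControl it was 0.84 (0.70 to 0.996).

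Where a Smad3 peak was present it was usually centred on the member. The centres lay at a median of 50 bp apart for Smad3 siControl and Smad3 siTTF-1, the same as at shared peaks. They lay within 200 bp of each other at 87.5% and 84.3% of members and at 89.2% and 87.2% of shared peaks. For Smad4 the share within 200 bp was 83.3% of members and 76.6% of shared peaks. For A549 Smad3 it was 65.9% of 41 members and 77.7% of shared peaks. At shared peaks in the last 40% of the TTF-1 list it was 91.0% for Smad3 siControl and 89.4% for Smad3 siTTF-1. Those late peaks gave 87.2% for Smad4 and 80.4% for A549 Smad3. No intervals are given for these shares, so no order between members and shared peaks is read from them. The Smad3 siTTF-1 peaks at members had a median number of 5120 of 14145, against 5474 at all shared peaks and 6997.5 at shared peaks in the last 40% of the TTF-1 list. For Smad3 siControl the medians were 4876 of 8941 at members, 3934 at all shared peaks and 5515 at the late ones. For Smad4 they were 733.5, 708 and 727, and for A549 Smad3 1466, 1117 and 1157. No spread was computed for these medians, and those for Smad4 were close to each other. By the median, Smad peaks at members stood earlier than those at late shared peaks in the H441 Smad3 lists and later in the A549 list. Against all shared peaks they stood later for Smad3 siControl and A549 Smad3 and earlier for Smad3 siTTF-1. A Smad3 peak broad enough to reach a 0 h TTF-1 peak as well was seen at 8 of 176 members for siControl and at 12 of 306 for siTTF-1, and at none of the 48 with Smad4 (exact upper limit 7.40%). Seen from the Smad lists, members accounted for 175 of the 8941 Smad3 siControl peaks (1.96%, 1.68 to 2.27), 304 of the 14145 Smad3 siTTF-1 peaks (2.15%, 1.92 to 2.40), 48 of the 1605 Smad4 siTTF-1 peaks (2.99%, 2.21 to 3.95) and 41 of the 2535 A549 peaks (1.62%, 1.16 to 2.19).

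Smad overlap also differed with the distance from 0 h TTF-1 sites. Smad3 siTTF-1 was present at 25 of the 119 members within 500 bp of a 0 h peak (21.0%, 14.1 to 29.4). Over 500 bp and up to 10 kb away it was present at 133 of 328 (40.5%, 35.2 to 46.1), and beyond 10 kb at 148 of 438 (33.8%, 29.4 to 38.4). Smad4 was at 2, 19 and 27 members of these classes, or 1.68% (0.20 to 5.94), 5.79% (3.52 to 8.90) and 6.16% (4.10 to 8.84). Members next to a 0 h peak thus had the lowest shares of both. Their interval stood apart from that of the middle class for Smad3 siTTF-1 and overlapped the others. For Smad3 siControl the shares were 16.8% (10.6 to 24.8), 22.3% (17.9 to 27.2) and 18.9% (15.4 to 22.9), and their intervals overlapped.

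Members were spread over the 22 autosomes and chromosome X. Their share of the 1.5 h peaks, 4.16% over all chromosomes, ranged from 2.94% (1.83 to 4.45) on chromosome 17 to 6.09% (4.30 to 8.33) on chromosome X. Chromosome X was 1 of 23 chromosomes compared, with no adjustment, and held 36 members. Chromosome 9 had 48 members (5.53%, 4.11 to 7.27). No window of 1 Mb held more than 4 members, and 550 windows held 1. The 3 windows with 4 members were 59000001 to 60000000 on chromosome 3, 19000001 to 20000000 on chromosome 11 and 92000001 to 93000000 on chromosome 14, which held 10, 30 and 14 peaks of the 1.5 h list. In the window on chromosome 3, 1 member (59781451 to 59781899) had Smad3 in both conditions and an early Smad4 peak (number 417), and the other 3 had no Smad peak. On chromosome 14 the members at 92101951 and 92322001 had Smad3 in both conditions, as did that at 19637801 on chromosome 11. These had no Smad4 peak, and the remaining members of both windows had no Smad peak.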

How the data were processed

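Peak lists of 7 ChIP-seq libraries were used, of 10 samples in all. The other 3 are input DNA, not analysed here. Per the labels, the false discovery rate allowed in peak calling was 1% in the H441 Smad3 and TTF-1 lists, 10% in the Smad4 lists and 5% in A549. Coordinates are on hg18, per the submitters' processing notes, and names of the aligner and caller were not given in the sources used here. The deposited score is 1000 for every peak and was not used. Positions stand in steps of 50 bp, and 1 was added to each deposited start. The authors' 3 subset lists were not used.

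Members were found with a 1 bp overlap. Shares have exact Clopper-Pearson 95% intervals, and odds ratios are Mantel-Haenszel ratios within 5 equal groups of peak number. The overlap and ratio code was tested on simulated data and against bedtools 2.31.1 with Python 3.11.15, NumPy 2.4.6, pandas 2.3.3, SciPy 1.17.1 and matplotlib 3.10.9. Members, lists and tests were chosen with earlier results of these data known. Peaks were named by rule: the 8 members with the lowest peak number, and 3 each that were widest, farthest from or nearest to a 0 h peak, or earliest in each Smad class, and the 3 densest windows of 1 Mb. The members named inside the dense windows were chosen after their values were seen. Genes, motifs and sequences at the members are not analysed here, for want of an hg18 reference, and those planned counts were not run.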

Additional observations from a re-analysis of the deposited data

Results flagged for a closer look

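The 7 TTF-1 peaks on chromosome 15 that the rule leaves out (41264951 to 41274549) are a signal at 1.5 h outside the comparisons above. Their peak numbers were 1, 2, 21, 51, 63, 247 and 602, while the first member stood at number 4947. The nearest 0 h peak lay 34401 to 43301 bp away, and none overlapped a Smad peak of the 4 lists compared.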

How the results depend on the processing

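The number of members was 766 with no 0 h peak within 500 bp, 1005 where a 0 h peak had to cover 50% of the peak, 1898 where 0 h centres had to lie within 200 bp and 3022 with the 0 h list at equal length. Subsets of the 1.5 h list held 23 members (first 50%) and 120 (wider 50%). Under these settings the Smad3 siControl share moved to 33.2% (centres), 56.5% (first 50%) and 32.5% (wider 50%), and the Smad3 siTTF-1 share to 39.8%, 60.9% and 50%. In the first 50%, the intervals were 34.5 to 76.8 for Smad3 siControl and 38.5 to 80.3 for Smad3 siTTF-1. Among shared peaks, Smad3 siControl was at 65.9% of those numbered up to 4259, 41.9% of 4260 to 8517 and 29.8% of 8518 to 12775. For Smad3 siTTF-1 these shares were 50.6%, 40.0% and 35.5%. In the first 50% and the wider 50%, Smad4 was at 13.0% and 11.7% and A549 Smad3 at 13.0% and 9.17%. With Smad edges within 500 bp, Smad3 siControl was at 23.7% and Smad3 siTTF-1 at 38.2%. With Smad centres within 200 bp, Smad3 siTTF-1 was at 29.2% and A549 at 3.05%. Smad4 was at 3.16% where it had to cover 50% of the member, and Smad3 siTTF-1 at 25.1% with its list at the siControl length. Odds ratios turned below 1 without groups for Smad3 siControl (0.46), Smad3 siTTF-1 (0.94) and A549 (0.91), and with groups of width for Smad3 siControl (0.84). The A549 interval rose above 1 with groups of width (1.54), 10 groups of number (1.41), edges within 500 bp (1.56), members over 500 bp from a 0 h peak (1.48) and 25 groups of number by width (1.69). The Smad4 ratio had an interval above 1 under all 11 alternatives run. A 0 h peak lay within 1 kb, 5 kb and 50 kb of 19.4%, 39.7% and 80.9% of members. Shares in subsets of the list rest on fewer members. The shares of shared peaks over the same subsets are not given, so no excess at members is read from them. The causes of the moves, in subsets or elsewhere, were not tested. The 25 groups, the equal-length Smad shares, the 2 comparisons among Smad3 siTTF-1 sites, Smad3 kept after depletion within groups and leaving out the group with 7 members were chosen after seeing the data. Also not planned were the odds ratios for sites only at 0 h and for Smad3 only in siTTF-1 cells. The same holds for Smad shares by distance from 0 h peaks and for the centring and numbers of Smad peaks at members. With 1 library per condition, no paired or leave-one-out analysis was run, and library depth is unknown.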
